A study of Homo sapiens with 12 samples.

Results

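The immunoproteasome subunits, the PA28 activator and the ER aminopeptidases are a group of 7 genes chosen by name for their role in making peptides for MHC class I: PSMB8, PSMB9 and PSMB10, PSME1 and PSME2, and ERAP1 and ERAP2. The choice was made with earlier results of these data known. All 7 were among the 16101 genes listed in the PMA experiment and the 15991 listed in the ConA experiment. RNA was selected by its polyA tail from HT1080 cells, a human fibrosarcoma line labelled wt, in 12 libraries, 3 for each of 4 groups. All cells were grown in biotin-depleted medium and moved to the same medium with 1% serum. The PMA group then received 40 nM phorbol 12-myristate 13-acetate (PMA), an activator of protein kinase C, for 24 h, and the ConA group received 40 µg/mL concanavalin A (ConA), a mannose-binding lectin, for 24 h. Each treatment had 3 control libraries of its own, whose labels give no agent and no time. The labels do not say whether the libraries of a group came from separate cultures, so p-values measure the spread between these libraries only.

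Cells cut most of their cytosolic proteins with the 20S proteasome, whose 3 catalytic subunits in most tissues are PSMB5, PSMB6 and PSMB7. After exposure to interferon, newly made particles take up PSMB8 (LMP7), PSMB9 (LMP2) and PSMB10 (MECL-1) at the places of PSMB5, PSMB6 and PSMB7, and the product is called the immunoproteasome. PSME1 and PSME2 encode PA28 alpha and PA28 beta, which together form a ring that caps the core and speeds the release of short peptides. ERAP1 and ERAP2 then trim the N-terminus of peptides in the endoplasmic reticulum, after TAP1 and TAP2 have carried them across the membrane and before they are loaded on MHC class I.

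The stretches of promoter below are shown because the interferon-stimulated response element (ISRE), the site read by interferon-activated transcription factors, is what this gene family is known for. Sequences were taken from RefSeq (build GRCh38.p14) from 250 bases before to 50 after each annotated start, which gave 10 windows for the 7 genes. Each window was searched on both strands for the ISRE core (GAAA, any 2 bases, GAAA), for the interferon gamma-activated site, called GAS (TTC, any 3 bases, GAA), and for the NF-kB site. Capitals mark the ISRE core on either strand, each line reads 5′ to 3′ on the strand of the gene, and positions count from the annotated start as 0.
PSMB8: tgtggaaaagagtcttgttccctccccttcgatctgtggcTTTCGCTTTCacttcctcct
PSMB10: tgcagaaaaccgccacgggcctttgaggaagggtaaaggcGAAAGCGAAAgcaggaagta
PSME1: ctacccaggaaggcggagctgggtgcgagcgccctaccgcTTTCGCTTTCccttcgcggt
PSME2: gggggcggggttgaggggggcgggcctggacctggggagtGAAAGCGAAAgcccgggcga
ERAP1: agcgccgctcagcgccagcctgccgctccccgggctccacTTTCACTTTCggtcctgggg
ERAP2: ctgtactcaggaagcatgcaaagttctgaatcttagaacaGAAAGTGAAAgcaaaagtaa
TAP1: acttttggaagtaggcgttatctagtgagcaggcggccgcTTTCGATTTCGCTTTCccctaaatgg

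The stretches lie at chr6:32844032-32844091 (PSMB8, minus strand, second of its annotated starts), chr16:67936852-67936911 (PSMB10, minus), chr14:24136159-24136218 (PSME1, plus), chr14:24146619-24146678 (PSME2, minus), chr5:96807924-96807983 (ERAP1, minus) and chr5:96876430-96876489 (ERAP2, plus, second start). The core ran from position -4 to 5 in PSMB8, from -21 to -12 in PSMB10, from 5 to 14 in PSME1, from -28 to -19 in PSME2, from 2 to 11 in ERAP1 and from -30 to -21 in ERAP2. In all 6 genes it therefore sat within 30 bases of an annotated start. Of all 27305 genes with a window, 4.38% held the core. With both free letters read, PSMB8, PSMB10, PSME1 and PSME2 shared GAAAGCGAAA, which was found in 34 genes of the genome (0.125%), and ERAP1 and ERAP2 shared GAAAGTGAAA, found in 68 genes (0.249%). This reading of the free letters was made after the matches had been seen.

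PSMB9 was the 1 member with no match to any of the 3 motifs in its window. It lies head to head with TAP1, the peptide transporter subunit, and their annotated starts are 488 bases apart. The TAP1 window held a pair of overlapping ISRE cores (chr6:32853813-32853878, minus strand), 354 to 369 bases before the PSMB9 start and so outside the PSMB9 window. That TAP1 window also held 2 NF-kB matches, at -72 to -63 and at 22 to 31 from the TAP1 start. The window of a second TAP1 start held a GAS match. A GAS match was found in PSMB8 and an NF-kB match in ERAP1, in 1 member each, against 9.38% and 13.3% of genes. PSMB5, the 1 standard catalytic subunit with a window in the table, had no ISRE core and 2 GAS matches. A match is a run of letters and does not show that a factor was bound.

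Values are normalized counts, estimated read counts per gene divided by a factor for each library and not by gene length. Between 33633923 and 45578641 reads were estimated per library (median 40962834), and the lowest normalized count of any of the 7 genes in any library was 561, of PSMB9 with PMA. A gene was said to rise or fall when limma gave an adjusted p of at most 0.0001 over all genes tested, and was called when its log2 fold change, taken on log2(normalized count + 1), was also at least 1 in size. Replicate libraries differed by more than sampling noise. Of the markers of the labelled cell type, all 6 mesenchymal genes were listed in both experiments, with summed normalized counts of 549584 to 554132 in untreated and 532238 to 550112 in treated cells of the PMA experiment, and of 643517 to 710273 in untreated and 467834 to 515623 in treated cells of the ConA experiment. Single markers moved in both experiments. With PMA, SPARC was called lower (63219 to 21957, -1.53), FN1 fell (-0.56) and VIM rose (0.49). With ConA, S100A4 was called lower (-1.05), VIM (-0.79), FN1 (-0.68) and CD44 (-0.40) fell, and none of the mesenchymal genes rose. Of 12 leukocyte markers, 8 were listed in the PMA experiment, with summed normalized counts of 629 to 719 in controls and 765 to 1220 with PMA, and 3 in the ConA experiment, with sums of 112 to 143 in controls and 132 to 201 with ConA. The pan-leukocyte gene PTPRC averaged 180 normalized counts in untreated cells of the PMA experiment and 243 in treated ones, and was among the 9 markers not listed for ConA. None of the leukocyte markers passed the test in either experiment. CD3E, a T cell gene chosen after its values were seen, averaged 117 in the PMA controls and 203 with PMA (log2 fold change 0.78, limma adjusted p = 0.000183). In bulk RNA, fewer cells of a type and less RNA per cell cannot be told apart, and the part of these markers in the results was not tested.

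**Figure D1:**
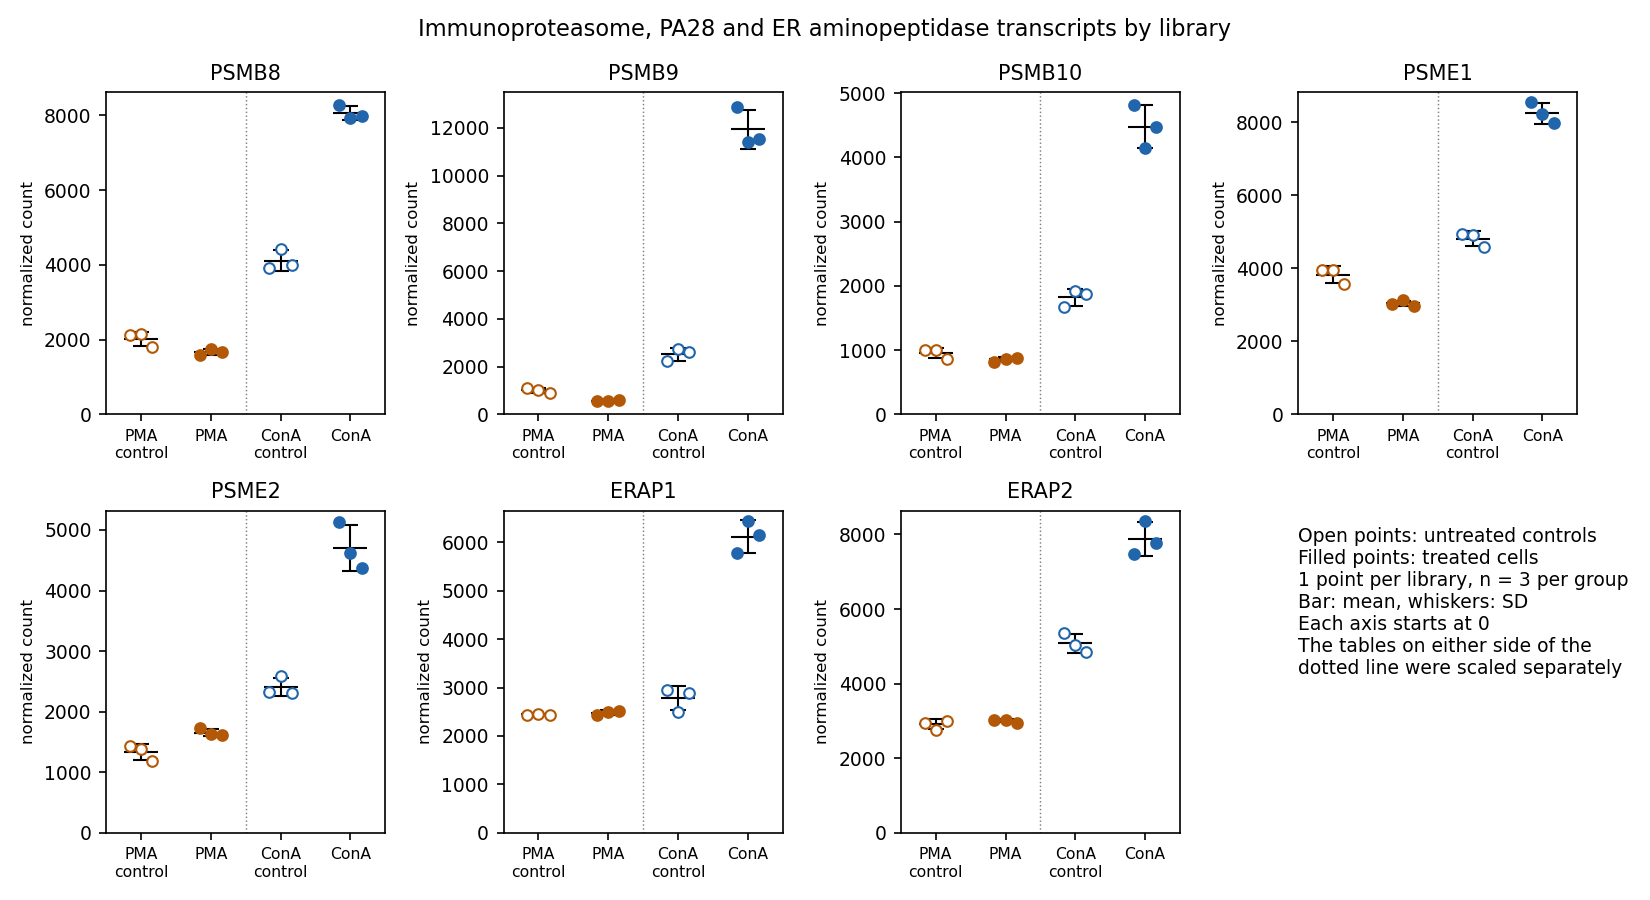
Normalized count of each of the 7 genes (vertical axes, each from 0) in the 12 libraries, by group along the horizontal axis. Open points are control libraries, filled points treated libraries, bars the mean and whiskers the SD of 3. With ConA every treated library lies above every control library in all 7 panels, and with PMA the panels of PSMB8, PSMB9 and PSME1 show all treated libraries below the controls.

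With ConA, all 7 genes rose, and PSMB9, PSMB10 and ERAP1 were called. Among all genes tested, 15.8% rose by the same rule and 5.83% were called higher. The 3 ConA libraries lay above all 3 controls for 7 of 7 genes, where 34.9% of all genes tested showed that order. The median log2 fold change of the 7 genes was 0.97, against a median of 0.00 over all 15139 genes tested. The smallest change was that of ERAP2 (0.63) and the largest that of PSMB9 (2.25).

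PSMB9 encodes the immunosubunit that replaces the caspase-like PSMB6. Its control libraries held 2212, 2737 and 2607 normalized counts, and its ConA libraries held 12887, 11418 and 11515. The lowest ConA library lay far above the highest control. The means were 2519 ± 273 and 11940 ± 822 (SD, n = 3), a ratio of 4.74 and a log2 fold change of 2.25 with a 95% confidence interval of 2.09 to 2.41 (limma adjusted p = 6.30e-12).

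PSMB10, which takes the place of the trypsin-like PSMB7, held 1663, 1918 and 1874 normalized counts in controls and 4817, 4143 and 4477 with ConA. The groups were separated by more than the whole range of either. The log2 fold change was 1.30 (95% confidence interval 1.15 to 1.45, limma adjusted p = 1.20e-09). PSMB8, the immunosubunit for the chymotrypsin-like site of PSMB5, held 3918, 4434 and 3997 in controls and 8293, 7929.9 and 7988 with ConA. Its log2 fold change of 0.97 (0.85 to 1.09, limma adjusted p = 3.28e-09) had an interval that spans the fold minimum of 1, and it was not called. Without the highest control library, ConA control replicate 5, the change of PSMB8 was 1.03 and it was called.

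PSME1 and PSME2, the alpha and beta subunits of PA28, rose by less than 2-fold with ConA. PSME1 held 4942, 4899 and 4574 normalized counts in controls and 8542, 8221 and 7964 with ConA, a log2 fold change of 0.78 (0.66 to 0.89, limma adjusted p = 1.69e-08). PSME2 held 2329, 2587 and 2312 in controls and 5125, 4618 and 4378 with ConA, a log2 fold change of 0.96 (0.82 to 1.11, limma adjusted p = 2.05e-08). Neither gene had a ConA library near the control range. PSME2 crossed the fold minimum without ConA control replicate 5 (1.02) or without ConA replicate 3 (also 1.02).

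Of the trimming enzymes, ERAP1 held 2958, 2497 and 2895 normalized counts in controls and 5776, 6447 and 6145 with ConA. Its log2 fold change was 1.14 (0.99 to 1.29, limma adjusted p = 4.16e-09). The call was lost when limma moderated variances without a trend over the mean level (adjusted p = 0.000147). ERAP2 held 5359, 5034 and 4843 in controls and 7475, 8363 and 7782 with ConA, a log2 fold change of 0.63 (0.51 to 0.76, limma adjusted p = 3.66e-07). ERAP2 had the smallest rise of the 7 and its libraries still did not overlap. Without the variance trend, the adjusted p of PSME1, PSME2, ERAP1 and ERAP2 ran from 0.00014 to 0.000528, above the 0.0001 required, and that of the 3 immunosubunits stayed below it.

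With PMA, none of the 7 genes was called, where 4.03% of all genes tested were called higher and 4.61% lower. PSMB9 and PSME1 fell and none rose, while 11.2% of all genes tested fell and 14.7% rose. The PMA libraries lay below all controls for PSMB8, PSMB9 and PSME1 and above them for PSME2, and the groups overlapped for PSMB10, ERAP1 and ERAP2. Over all genes tested, 33.1% had PMA libraries below and 34.8% above the controls. The median log2 fold change of the 7 genes was -0.16, against 0.00 over all 15153 genes tested.

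PSMB9 held 1118, 1016 and 906 normalized counts in the PMA controls and 569, 561 and 584 with PMA. Every control was above the PMA libraries, which were close together, with a coefficient of variation of 2.09% against 10.5% in the controls. The means were 1014 ± 106 and 571 ± 11.9 (SD, n = 3), a log2 fold change of -0.82 with a 95% confidence interval of -0.98 to -0.66 (limma adjusted p = 2.09e-06). PSMB9 was thus the member with the largest change under either agent, downward with PMA and upward with ConA. Its fall missed the adjusted p of 0.0001 in 1 of 16 alternatives, the fit without a variance trend (0.000511).

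PSME1 held 3958, 3946 and 3569 normalized counts in controls and 3010.2, 3122 and 2968 with PMA. Its log2 fold change was -0.33 (-0.44 to -0.23), and its limma adjusted p of 9.86e-05 lay just inside the threshold. In 7 of 16 alternatives it lay outside, among them the fits without any 1 PMA library and without PMA control replicate 1 or 2, with adjusted p of up to 0.00383. PSME2, its partner in the ring, held 1436, 1376 and 1188 in controls and 1724, 1624.5 and 1615 with PMA, so its libraries were ordered the other way. That log2 fold change of 0.32 (0.17 to 0.46) did not pass the test (limma adjusted p = 0.00171).

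The other immunosubunits had lower values with PMA that did not pass with all libraries. PSMB8 held 2127, 2137 and 1809.95 normalized counts in controls and 1597, 1759 and 1679.9 with PMA, a log2 fold change of -0.27 (-0.41 to -0.12, limma adjusted p = 0.00441). PSMB10 held 1001, 1007 and 868 in controls and 817, 867 and 881 with PMA, a log2 fold change of -0.16 (-0.31 to -0.01, limma adjusted p = 0.0535). The third control was the lowest of the controls for PSMB8, PSMB9, PSMB10, PSME1 and PSME2, as it was for 31 of 39 other proteasome genes and for 36.8% of all genes tested. Without that library PSMB8 passed (-0.35, limma adjusted p = 2.62e-05). For PSMB10 it lay within the PMA range.

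ERAP1 held 2438, 2454 and 2442 normalized counts in controls and 2424, 2505 and 2526 with PMA (log2 fold change 0.02, -0.06 to 0.11, limma adjusted p = 0.622). ERAP2 held 2956, 2758 and 3009.6 in controls and 3029.9, 3034 and 2953 with PMA (0.05, -0.05 to 0.14, limma adjusted p = 0.352). The intervals leave room for a change of at most 0.14 on the log2 scale in either gene under this normalization, and the sign of both turned negative under quantile normalization and under voom.

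**Figure D2:**
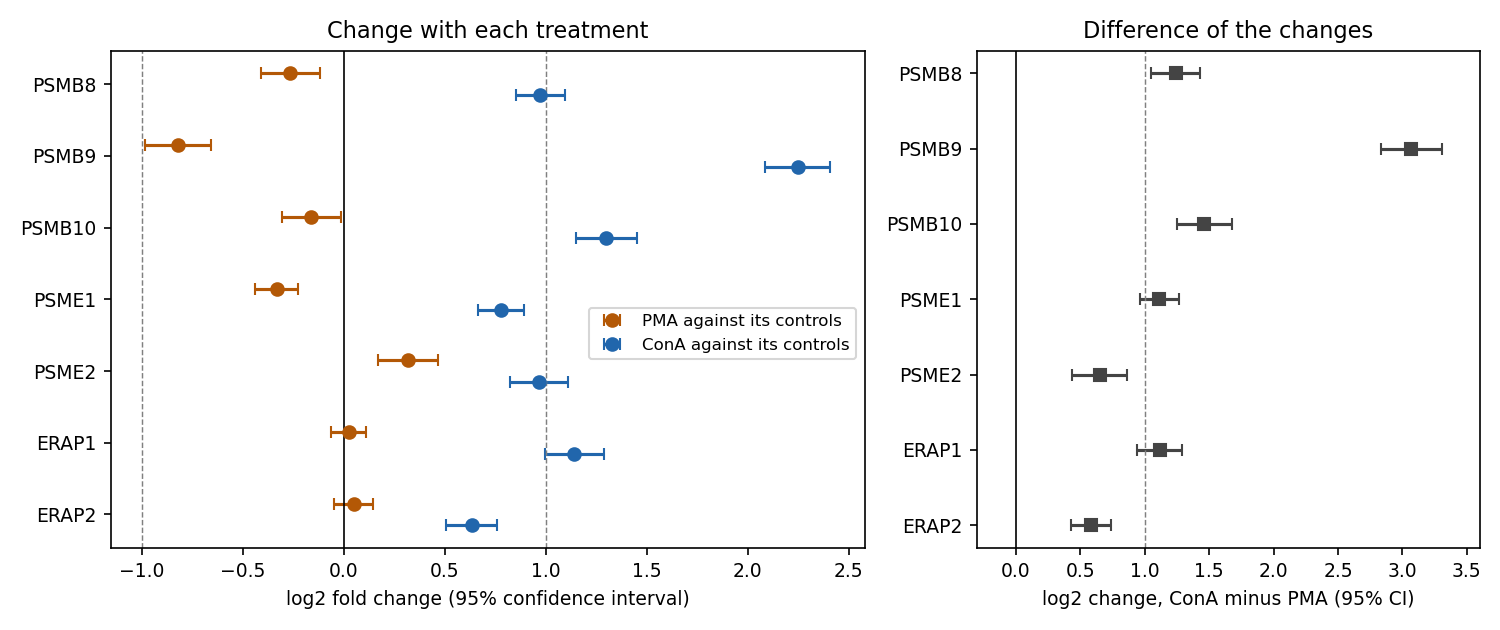
Left, log2 fold change of the 7 genes with PMA (orange) and with ConA (blue), each against its own controls, with 95% confidence intervals and dashed lines at the fold minimum of 1 in each direction. Right, change with ConA minus change with PMA. PSMB9 has the lowest value with PMA (-0.82) and the highest with ConA (2.25), and all 7 differences lie above 0.

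The question of whether the agents acted differently on these genes was tested directly, in 1 limma fit of all 12 libraries, as the change with ConA minus the change with PMA. That difference passed an adjusted p of 0.0001 for 7 of 7 genes, where 13.1% of the 15030 genes tested did so in this direction, and 5 of the 7 were called, where 6.89% of all genes were. It was 3.07 for PSMB9 (95% confidence interval 2.83 to 3.31, limma adjusted p = 2.18e-13), 1.46 for PSMB10 (1.25 to 1.68), 1.24 for PSMB8 (1.05 to 1.43), 1.12 for ERAP1 (0.94 to 1.29) and 1.11 for PSME1 (0.96 to 1.26). PSME2 (0.65, limma adjusted p = 2.91e-05) and ERAP2 (0.58, adjusted p = 2.81e-06) passed on p and missed the fold minimum. For PSME2, 7 of 20 alternatives put the adjusted p above 0.0001, up to 0.000941, and for ERAP2 1 did, the fit without a variance trend (0.000153). The experiments were separate, so that agent and experiment cannot be told apart in the difference.

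An immunosubunit competes with 1 standard subunit for its place in the core, so the transcripts were also compared as ratios within each library, which do not depend on how the library was scaled. The ratio of PSMB9 to PSMB6 averaged 0.518 ± 0.0359 over untreated cells and 2.93 ± 0.123 over cells given ConA (SD, n = 3), which is 5.67-fold higher. The ratio of PSMB8 to PSMB5 went from 0.409 ± 0.0118 to 1.02 ± 0.0349, and that of PSMB10 to PSMB7 from 0.178 ± 0.00822 to 0.459 ± 0.0233. In each pair all 3 ConA libraries lay above all 3 controls, by 2.50, 1.32 and 1.37 on the log2 scale. With PMA the same ratios lay lower in every treated library than in any control: from 0.339 ± 0.0247 to 0.169 ± 0.00471 for PSMB9 to PSMB6, from 0.275 ± 0.0084 to 0.198 ± 0.00433 for PSMB8 to PSMB5, and from 0.125 ± 0.00419 to 0.0971 ± 0.00308 for PSMB10 to PSMB7. For PSMB9 to PSMB6 the ratio with PMA was 0.499 of that in controls. How many other pairs of genes separate in this way was not counted. Of single genes tested, 34.9% had all ConA libraries above the controls and 33.1% had all PMA libraries below them.

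The ratio of PSME1 to PSME2 was 2.88 ± 0.124 in untreated and 1.84 ± 0.0877 in treated cells of the PMA experiment, and 2.00 ± 0.115 in untreated and 1.76 ± 0.0791 in treated cells of the ConA experiment. Its groups did not overlap in either experiment, though the log2 change was -0.65 with PMA and -0.19 with ConA. The ratio of ERAP1 to ERAP2 was 0.842 ± 0.0419 and 0.827 ± 0.0278 in the PMA experiment, where the groups overlapped, and 0.549 ± 0.0508 and 0.778 ± 0.0104 in the ConA experiment, where they did not. In all, 10 ratios were tested, 5 pairs in each experiment. A two-sided exact permutation test of 3 libraries against 3 cannot go below p = 0.1, which 9 of the 10 reached (0.111 after Benjamini-Hochberg adjustment), so that none could pass 0.05. The exact p of ERAP1 to ERAP2 with PMA was 0.7.

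**Figure D3:**
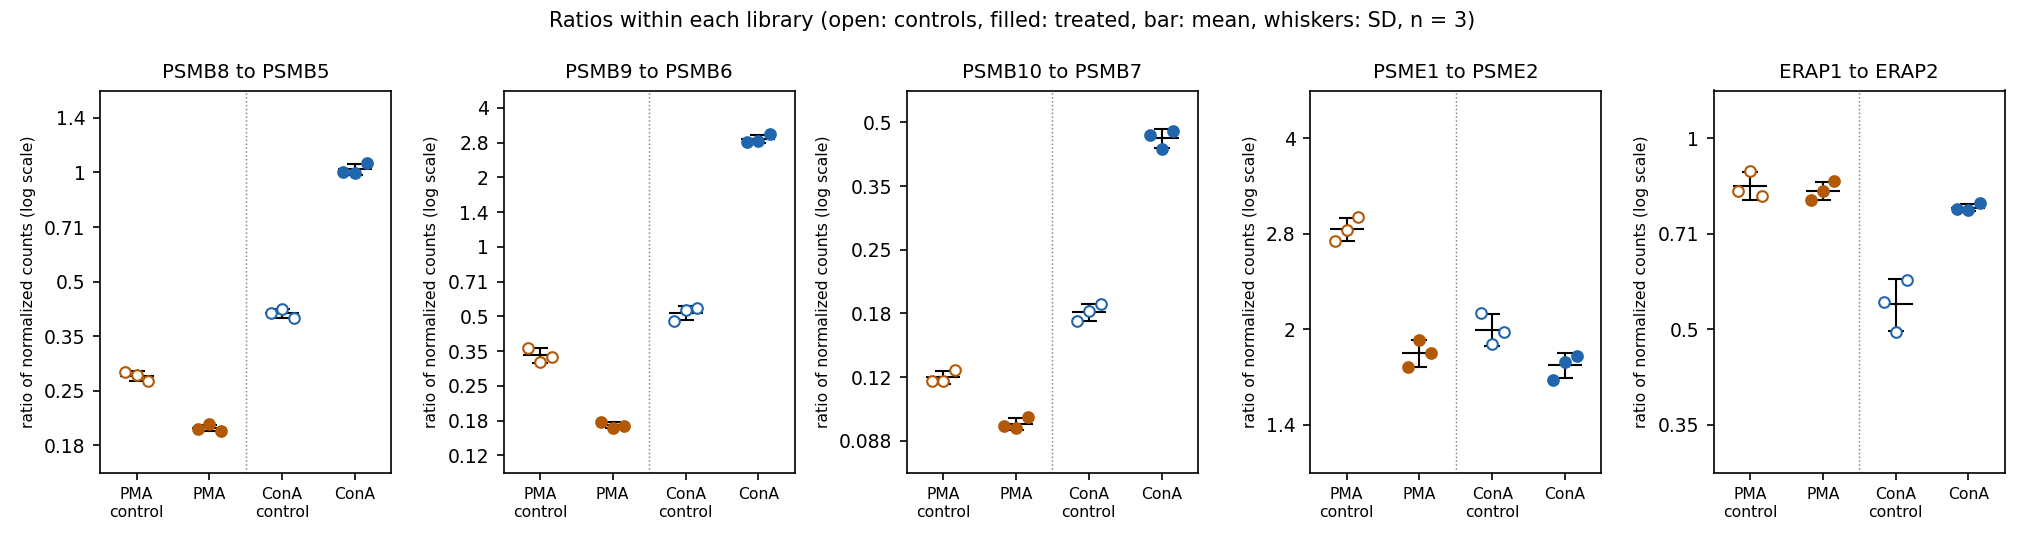
Ratio of the normalized counts of each pair of genes (log scale, vertical axes) in the 12 libraries by group. Open points are controls, filled points treated libraries, bars means and whiskers SD. The 3 immunosubunit ratios lie below the controls with PMA and above them with ConA, and PSMB9 to PSMB6 passes from below 1 in all controls to about 2.9 with ConA.

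Levels of different genes can be set against each other only per length, so counts were divided by the median length in kb of the protein-coding transcripts of each gene in GENCODE release 29. On that scale PSMB9 made up 36.2% ± 1.62 (SD, n = 3) of PSMB9 plus PSMB6 in the ConA controls and 76.2% ± 0.745 with ConA. PSMB8 made up 26.9% of PSMB8 plus PSMB5 in controls and 47.8% with ConA, and PSMB10 made up 12.5% and 26.9% of PSMB10 plus PSMB7. On median lengths, PSMB9 was thus the 1 immunosubunit whose mean level per kb passed that of its counterpart. PSMB8 came close, with a mean share of 49.4% with ConA when the longest transcript of each gene was used. Annotated transcripts ran from 1025 to 1351 bases for PSMB8 and from 729 to 1294 for PSMB5. Which of PSMB8 and PSMB5 was higher with ConA therefore depends on the lengths used. In the PMA experiment these shares went from 27.1% to 15.6% for PSMB9, from 19.8% to 15.1% for PSMB8 and from 9.13% to 7.25% for PSMB10. The share of PSME1 in PSME1 plus PSME2 was between 58.4% and 69.7% in the 4 groups, and with the longest transcript of each gene instead of the median length it was between 68.4% and 78.0%.

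With ConA, the transcript of the standard subunit PSMB5 fell by 0.35 on the log2 scale, from 10054 ± 467 to 7916 ± 362 normalized counts, and PSMB6 (-0.25, limma adjusted p = 0.00503) and PSMB7 (-0.07, adjusted p = 0.316) did not pass. With PMA the log2 fold changes of PSMB5, PSMB6 and PSMB7 were 0.21, 0.18 and 0.20, and none passed. Tested as ConA minus PMA, the change of PSMB5 was -0.56 (limma adjusted p = 7.70e-06), opposite in sign to those of the 3 immunosubunits.

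Over 39 other proteasome genes (the standard catalytic subunits, the rest of the 20S core, assembly factors, the 19S cap, and other caps and the inhibitor), 5 rose and 3 fell with ConA. Of all genes tested, 15.8% rose and 14.7% fell. None of the 39 was called in either direction, where 5.83% of all genes tested were called higher and 2.88% lower. Their median log2 fold change with ConA was -0.01, with a range of -0.65 to 0.79 that overlaps the lowest changes of the 7 genes. The lowest was PSMB4 (-0.65) and the highest PSME4 (0.79), which encodes the PA200 cap. PSME3, which encodes the PA28 gamma cap of the nucleus, was at 8148 ± 180 in controls and 8088 ± 177 with ConA. POMP, the chaperone of core assembly, did not pass with ConA (0.29) and rose by 0.49 with PMA.

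With PMA, 15 of the 39 rose, none fell, and the median was 0.26, where 14.7% of all genes tested rose and 11.2% fell. Of all genes tested, 4.03% were called higher with PMA and 4.61% lower. PSMD2, a scaffold of the 19S cap chosen here after its values were seen, was the 1 called, from 25003 ± 347 to 57184 ± 811 normalized counts (log2 fold change 1.19). In the 19S cap as a whole, 10 of 17 genes rose with PMA and 1 with ConA. In the direct comparison, the signed log2 fold change with ConA was above that with PMA in none of the 39 genes at an adjusted p of 0.0001, and below it in 7. Of all genes tested, 13.1% had it above and 13.9% below.

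**Figure D4:**
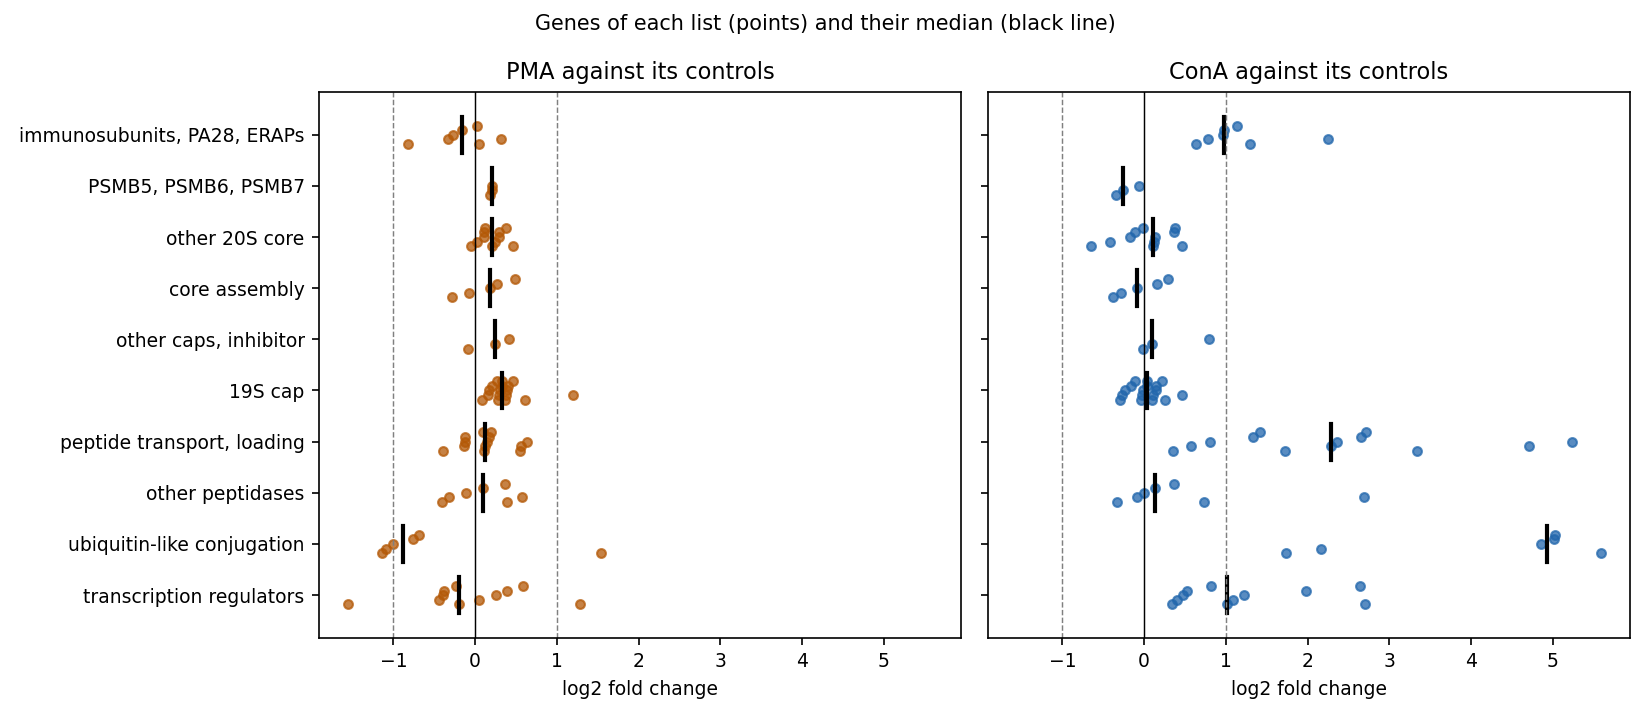
Log2 fold change with PMA (left) and with ConA (right) of each tested gene in 10 lists. Points are genes, black lines list medians, and dashed lines mark the fold minimum of 1. With ConA the medians of the 7 genes, of peptide transport and loading, of ubiquitin-like conjugation and of the regulators lie at 0.97 or above, and those of the 5 lists of other proteasome genes lie between -0.25 and 0.11.

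Downstream of the proteasome, the genes for peptide transport and loading (TAP transporter, tapasin and its relatives, chaperones, B2M and the MHC class I heavy chains) rose with ConA in 13 of 13 cases, and 10 were called. Their median log2 fold change was 2.29, above the value of each of the 7 genes. TAP1 went from 5828 ± 234 to 36763 ± 1102 normalized counts (2.66) and TAP2 from 8860 ± 97.4 to 29326 ± 725 (1.73). HLA-F (5.23) and HLA-B (4.71) had the largest changes of the list, although reads shared between the similar class I heavy chains make single values of these genes uncertain. With PMA, 2 of the 13 rose, none fell and none was called, with a median of 0.12, and TAP1 (-0.14) and TAP2 (0.15) did not pass. Beside the counts of this list and of the lists that follow stand the shares over all genes tested. With ConA, 15.8% rose and 5.83% were called higher. With PMA, 14.7% rose, 11.2% fell, 4.03% were called higher and 4.61% were called lower.

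Of 7 other peptidases that act on such peptides, LAP3, a cytosolic leucine aminopeptidase, was the 1 called with ConA, from 3016 ± 117 to 19528 ± 856 normalized counts (2.69). LNPEP, the endosomal relative of ERAP1 and ERAP2, rose by less than 2-fold (0.74). The median of this list was 0.13 with ConA and 0.09 with PMA. With PMA, 2 of the 7 rose, 1 fell and none was called. The ER enzymes of the family, ERAP1 and ERAP2, thus had changes with ConA on either side of that of LNPEP.

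The genes that attach or remove ubiquitin-like modifiers in interferon responses were called higher with ConA in 6 of 6 cases, with a median of 4.93. UBD, the modifier FAT10 that delivers proteins to the proteasome, went from 82.1 ± 6.04 to 2704 ± 189 normalized counts (5.02), and HERC5, the ligase of ISG15, from 155 ± 15.8 to 7488 ± 369 (5.59). With PMA, 5 of the 6 fell, 3 of them called lower, and UBD was called higher (48.7 ± 8.94 to 143 ± 17, log2 fold change 1.54). The direction of UBD with PMA was therefore opposite to that of the other 5.

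Of 11 transcription regulators of these genes, 10 rose with ConA and 6 were called, with a median of 1.02. NLRC5, the class I transactivator, went from 627 ± 24.6 to 4083 ± 285 normalized counts (2.70). IRF1, a transcription factor that binds the ISRE, went from 2365 ± 132 to 5500 ± 348 (1.22). With PMA, IRF1 fell by 0.45 on the log2 scale, while NLRC5 (0.26) did not pass, and of the whole list 3 rose and 4 fell. As ConA minus PMA, the changes were 2.44 for NLRC5 and 1.66 for IRF1, both called.

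Of 8 interferon genes looked for, 2 were listed in the PMA experiment and 3 in the ConA experiment. IFNL1, a type III interferon, was at 0, 3.0 and 2.0 normalized counts in the ConA controls and at 36.0, 39.7 and 40.4 with ConA, and it was called, though with controls this low the fitted fold depends on the count added before the log. IFNB1 was at 0, 1.0 and 2.0 in controls and at 8.01, 11.5 and 2.70 with ConA, too low to be tested. IFNG, type II interferon, was at 0.922, 2.68 and 2.71 in the PMA controls and at 5.80, 8.56 and 14.4 in treated cells, also too low to be tested, with no overlap. IFNE did not pass in either experiment (-1.36 with ConA, 0.52 with PMA). These transcripts were close to the limit of the depth reached.

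Several members lie beside other genes of the pathway, and whether reads were counted by strand is not given in the sources used here, so values of overlapping genes are uncertain. PSMB8 and PSMB9 sit in the class II region of chromosome 6 with TAP1 and TAP2 next to them. PSMB8-AS1, a transcript that overlaps PSMB8, averaged 172 normalized counts in cells without ConA and 534 in cells with it (1.62, called), and 123 and 104 in the PMA experiment. PSME1 and PSME2 flank EMC9 on chromosome 14, and the log2 fold change of EMC9 was -0.31 with ConA and -0.35 with PMA, neither past the test. ERAP1 overlaps ERAP2 and CAST in the annotation, and CAST, the calpain inhibitor, was at 0.03 with ConA. RNF31, beside PSME2, rose by less than 2-fold with ConA (0.52). CTRL and LCAT, beside PSMB10, did not pass.

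The mean profile of PSMB8, PSMB9 and PSMB10 over the 12 libraries, each set to the controls of its experiment, was compared with the profiles of all other genes tested in both experiments (14654 genes). The 5 closest were CSAG3, with a root mean square distance of 0.074 on the log2 scale, then TAPBPL (0.0779), APOL2 (0.0936), UNC93B1 (0.104) and TRIM14 (0.119). TAPBPL, a peptide editor related to tapasin, belongs to the loading genes above. The log2 fold changes of the 5 genes ran from -0.52 to -0.38 with PMA and from 1.41 to 1.60 with ConA, against -0.42 and 1.51 for the mean of the 3 immunosubunits. Their closeness is a description over 12 libraries in 4 groups.

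The untreated cells of the experiments differed in these genes. Relative to the median gene, the ConA controls were above the PMA controls by 1.13 on the log2 scale for PSMB9, 0.84 for PSMB8, 0.74 for PSMB10, 0.67 for PSME2 and 0.62 for ERAP2, which placed these 5 between the 95.5 and the 99.4 percentile of all genes. PSME1 (0.15) and ERAP1 (0.00) stood near the middle. PSMB5, PSMB6 and PSMB7 differed by 0.27, 0.52 and 0.22. The tables were normalized separately and the controls belong to separate experiments, so that these values carry no test and the source of the difference cannot be told apart. In normalized counts, each table on its own scale, the lowest ConA control lay above every PMA control for all 7 genes. The median of 14675 genes was itself 0.18 higher on the log2 scale in the ConA controls. The share of all genes with that order was not computed, so the order is no result about these 7.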

How the data were processed

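RNA of HT1080 cells was measured in 12 libraries. The signal values deposited by the authors are counts per gene symbol after normalization, 1 table per experiment: the authors estimated read counts and divided them by 1 factor per library, as the table names and the values show. The submitters' processing notes name Partek, Bowtie2, STAR and DESeq2 and the builds hg19 and mm10, without roles or versions. Counting by strand is not given in the sources used here.

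At the best factor per library, 80.9% to 83.2% of values between 5 and 60 were whole within 0.03. Whole reads were therefore not recovered, and the main test did not use counts. Voom on the estimated reads was run only as an alternative. Within each table, limma 3.58.1 (R 4.3.3, variance trend) was fitted to log2(value + 1) for genes with a mean of at least 10, with Benjamini-Hochberg adjustment over all of them (15153 with PMA, 15139 with ConA). The change with ConA was set against that with PMA in a fit of all 12 libraries. On simulated data, the fit called 100 of 100 genes changed by 1.5 on the log2 scale with PMA (15180 genes) and with ConA (15133 genes), 191 of 197 for the difference (15040 genes), and no unchanged gene. Of genes changed by 0.5 none was called. The adjusted p was passed by 6 of 100 with PMA, 16 of 100 with ConA and 1 of 196 for the difference. Every simulated gene had the same spread beyond sampling noise, a setting not matched to these libraries. How often small changes pass in these data was therefore not measured, and PSME1 passed with PMA at -0.33 with all libraries. With 3 libraries per group, precision is set by the spread between them.

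The 7 genes, the gene lists and the tests were chosen with earlier results of these data known. Named are all 7 genes, their standard counterparts, TAP1, TAP2, NLRC5, IRF1, PSME3, POMP, LNPEP, in each list the 2 genes that changed most with ConA, neighbours in the annotation, and the 5 most alike profiles, and 1 further gene of this rule is not reported here. In the cell type lists that rule gives S100A4 (-1.05) and VIM (-0.79), ITGAM (2.88, limma adjusted p = 0.000134) and LYZ (0.24), and CDH1 (0.56) and CLDN4 (0.35), with ConA. Of these, S100A4 and VIM passed, and the leukocyte and epithelial genes did not. The other listed genes of the leukocyte and epithelial lists, CD3D (-0.12) and EPCAM (-0.30), had negative values that did not pass either. Other results that the rule gives are PSMA4 (0.46), PSMG4 (-0.38), PSMF1 (0.09), PSMD11 (0.47) and PSMD4 (-0.29), all log2 fold changes with ConA. Sequences and neighbours come from RefSeq (GRCh38.p14), lengths from GENCODE release 29. Other values came from scripts in Python 3.11.15 with scipy 1.17.1, numpy 2.4.6 and pandas 2.3.3, and plots from matplotlib 3.10.9.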

Additional observations from a re-analysis of the deposited data

Results flagged for a closer look

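The log2 fold change with PMA less that with ConA was tested in 1 limma fit of all 12 libraries. In all 7 genes the change with ConA was above that with PMA and the adjusted p was passed. Of the 15030 genes tested, 13.1% passed in this direction. PSME2 and ERAP2 missed the fold minimum, and the other 5 of the 7 genes were called, where 6.89% of all genes tested were called in this direction. On the log2 scale the difference was -3.07 for PSMB9, -1.46 for PSMB10, -1.24 for PSMB8, -1.12 for ERAP1 and -1.11 for PSME1. All 5 kept their call under each of 20 alternatives to the fit, and the difference of PSMB9 ranged from -3.26 to -2.98.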

How the results depend on the processing

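All 7 genes kept a positive change with ConA under every alternative, and PSMB9 ranged from 2.16 to 2.31 on the log2 scale. Of the 7, 3 were called higher with ConA. That number was 5 under voom on estimated reads, 7 with no fold minimum, 2 without the variance trend, and 3 to 5 when single libraries were left out, with 5 without ConA control replicate 5. With PMA, 2 were lower with no fold minimum. Over all genes, no fold minimum gave 3912 calls with PMA, 4618 with ConA and 4062 for the difference, where the fold minimum gave 1310, 1318 and 1587, and no variance trend gave 867 with PMA and 662 with ConA. Under quantile normalization the change with PMA was -0.0846 for ERAP1 and -0.0809 for ERAP2, and under voom it was -0.0975 and -0.0721, where the values as reported are positive. The log2 ratio of ERAP1 to ERAP2 with PMA ran from -0.0513 to 0.0151 over single libraries left out, positive without PMA control replicate 2. The cause of these shifts was not tested beyond what each setting removes. Voom set each library to its own total, where the main fit kept the authors' scaling. Summed normalized counts were 40081123 to 40289797 with PMA and 36791432 to 37139546 in its controls. They were 40609399 to 41323373 with ConA and 42480641 to 43210305 in its controls.

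Replicate numbers 1 to 3 are shared by PMA and its controls, but same-numbered libraries did not deviate together (correlations -0.0636, 0.0964 and 0.0964), and not every library correlated best with its own number. With the replicate number as a block, 1264 genes were called with PMA, and none of the 7. No paired analysis was possible for ConA because its controls are numbered 4 to 6. Depth limits what can be said of the interferon transcripts IFNL1, IFNB1 and IFNG, whose control libraries held 0 to 3.0 normalized counts.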
